A study of Bos taurus with 6 samples.

Results

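The genes described here are 10 markers of the cells that lie around the granulosa layer of an ovarian follicle: the theca markers CYP17A1 and INSL3, the stromal markers PDGFRA, PDGFRB, DCN, LUM and THY1, and the endothelial markers PECAM1, CDH5 and VWF. They were chosen by gene symbol, as every probe that the platform annotation assigns to 1 of these symbols. This gave 13 of 43794 gene probes, and 10 of 15229 named genes. PDGFRA had 3 probes, VWF had 2 and each other gene had 1.

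The samples were cultured bovine granulosa cells from Holstein crossbred cattle, bought as abattoir material and taken from follicles 2 to 6 mm across. All cultures, treated or not, grew for 5 days in serum-free medium to which insulin and FSH had been added, each at 10 ng/ml. FGF18-treated cells then received fibroblast growth factor 18 at 10 ng/ml for 2 h, and control cells were left untreated. Each of 6 two-colour arrays carried RNA of both kinds. The arrays make up 3 biological replicates, each with 1 array that has FGF18 in Cy5 and 1 that has control in Cy5. How many animals gave each replicate, and whether control cells were collected at the start or the end of the 2 h, are not given in the sources used here.

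In a follicle the granulosa layer holds no blood vessels and is set apart by a basal lamina from the theca, a vascular layer of steroid-making cells, fibroblasts and endothelium. Theca cells convert progestins to androgens with the enzyme encoded by CYP17A1, and granulosa cells turn these androgens into oestradiol. Markers of theca, stroma and endothelium are therefore commonly read in granulosa cultures to judge which other cells came along. In bulk RNA, fewer cells of a type and less RNA per cell cannot be told apart.

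The markers fell into clearly different states. The probes of LUM, DCN and THY1, and 1 of the 3 probes of PDGFRA, were far above background in both conditions on all 6 arrays. CYP17A1, PDGFRB and CDH5 lay at the background threshold, PECAM1 lay below it in all 12 channels, and INSL3 and VWF lay just above it. No marker passed the test of FGF18-treated against control cells. THY1 stood out in another way, with a level in replicate 1 more than 4-fold below the mean of replicates 2 and 3 in both conditions.

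A spot was called above background where its intensity was more than 2 SD over the average of the 153 negative control spots of that array and channel. These spots carry 1 control sequence, so the threshold does not cover binding of other RNA to a probe. Between 45.7% and 73.5% of gene probes passed it per channel. By the looser rule for a gene, above background on at least 3 of 6 arrays in at least 1 condition, 12207 of 15229 genes passed, so passing it says little of a single marker. Values below are therefore also given as the spot intensity divided by its own threshold. Intensities of different probes depend on the probe as well as the RNA and were not ranked against each other.

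**Figure D1:**
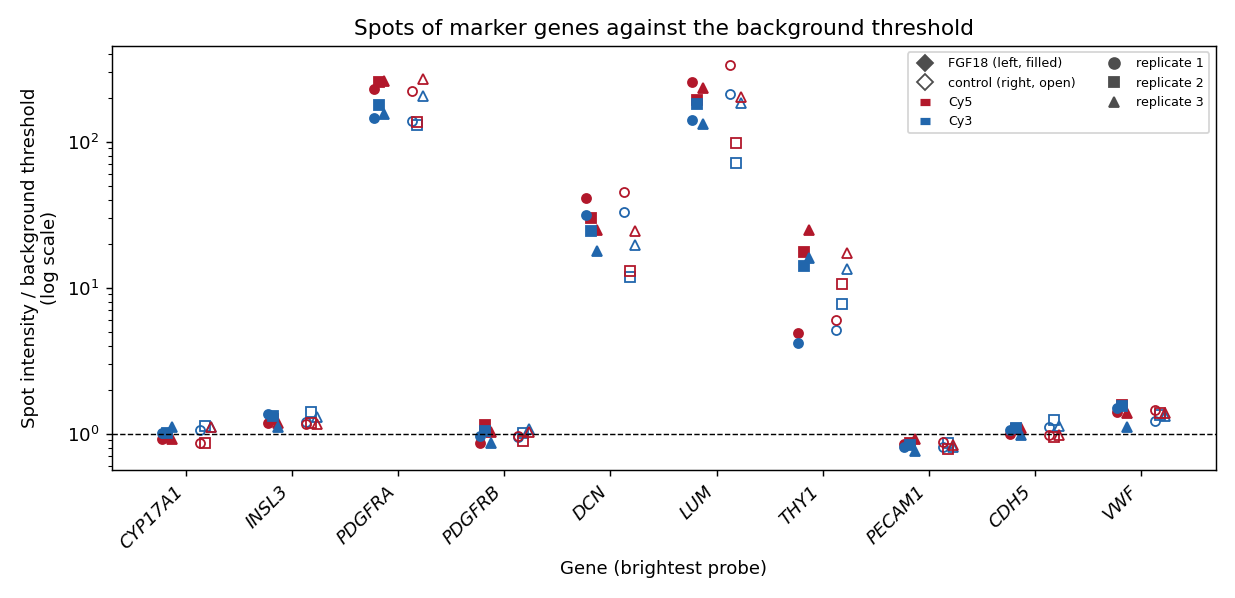
Mean spot intensity of the brightest probe of each marker, divided by the background threshold of its array and channel (log scale, dashed line at 1), for FGF18 (left, filled) and control (right, open) on each of 6 arrays. Colour gives the dye and shape the replicate. PDGFRA, DCN, LUM and THY1 lie well above the line in all 12 channels, PECAM1 lies below it in all 12, and THY1 of replicate 1 lies below the other replicates in both conditions.

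Of the theca markers, CYP17A1, which encodes the steroid 17-alpha-hydroxylase of androgen synthesis, had spot intensities from 106 to 234 in FGF18 channels (median 143) and from 81.7 to 249 in control channels (median 150). These were 0.914 to 1.10 times the threshold for FGF18 and 0.865 to 1.12 times for control. The probe passed on 3 FGF18 and 4 control channels. Its detection went with the dye: it passed in 6 of 6 Cy3 channels and in 1 of 6 Cy5 channels, whichever RNA they held. Up to 93 of the 153 negative control spots were brighter than it in an FGF18 channel, and up to 124 in a control channel.

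INSL3, a peptide hormone of the relaxin family made by theca cells, was above background in all 12 channels. Its spots reached 1.11 to 1.36 times the threshold for FGF18 and 1.16 to 1.41 times for control. At most 1 negative control spot was brighter in any channel. Normalised log2 levels were 7.21, 7.12 and 7.13 in FGF18-treated cells of replicates 1, 2 and 3, against 6.996, 7.39 and 7.07 in control cells. The 2 ranges overlapped, and the level in replicate 2 was the lowest of the FGF18 values and the highest of the control values.

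Among the stromal markers, PDGFRA encodes the alpha receptor for platelet-derived growth factor, found on many mesenchymal cells. Its brightest probe, EMBV3_14379, had intensities from 22675 to 36972 in FGF18 channels and from 18571 to 36812 in control channels, at least 131 times the threshold everywhere. The brightest gene spot of each channel lay between 35930 and 44299, so this probe was near the top of the range. Whether differences are under-read there was not tested. The other 2 probes of the gene gave a different picture. EMBV3_36697 had 163 to 279 for FGF18 and 112 to 356 for control, and EMBV3_37263 had 121 to 232 for FGF18 and 91.1 to 282 for control. Both lay at 0.966 to 1.61 times the threshold. The gene's high reading thus rests on 1 of 3 probes, whose sequence was not analysed here.

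PDGFRB, the beta receptor and a marker of pericytes and stromal cells, had 99.5 to 182 for FGF18 and 89.9 to 242 for control. It passed on 3 arrays in each condition, at 0.855 to 1.14 times the threshold for FGF18 and 0.895 to 1.08 times for control. In replicate 1 it passed in none of the 4 channels.

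DCN and LUM encode decorin and lumican, small leucine-rich proteoglycans that bind collagen fibrils. They are neighbours on the bovine genome, with 0 protein-coding genes between them in the RefSeq annotation of ARS-UCD2.0. DCN had 3525 to 4850 for FGF18 (median 4000) and 2627 to 4440 for control (median 3373), or 17.8 to 41.0 and 11.8 to 45.01 times the threshold. LUM had 21836 to 32783 for FGF18 (median 29102) and 15929 to 31534 for control (median 26612), or 132 to 258 and 71.6 to 335 times the threshold. Neither gene had a negative control spot brighter than it in any channel.

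THY1, a surface glycoprotein common on fibroblasts, had intensities of 567, 2078 and 3488 in replicates 1, 2 and 3 where FGF18 was in Cy5, and 644, 2401 and 3373 where FGF18 was in Cy3. Control values were 688, 1706 and 1891 in Cy3, and 564, 2862 and 2281 in Cy5. The 4 channels of replicate 1, from 564 to 688, thus lay below all 8 of the other replicates, from 1706 to 3488. After normalisation the log2 levels were 9.07, 11.07 and 11.69 in FGF18-treated cells, against 9.11, 11.35 and 11.07 in control cells. Replicate 1 was below the mean of the others by 2.31 in FGF18-treated cells (4.96-fold) and by 2.09 in control cells (4.27-fold).

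Such a spread was seen for few genes. The range between replicates was compared over 8505 genes whose brightest probe was above background on all 6 arrays in both conditions. Of these, 25 (0.294%) had a range at least as wide as that of THY1 in both conditions. The median range of the 8505 genes was 0.35 for FGF18 and 0.64 for control, against 2.62 and 2.24 for THY1. This is a description of 3 replicates, noticed in the data and not tested. THY1 was low on both arrays of replicate 1. A difference between cultures cannot be told apart from one in the handling of a replicate's RNA.

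The other stromal markers differed in where replicate 1 lay. DCN had 12.10, 11.85 and 11.79 in FGF18-treated cells and 11.90, 11.81 and 11.61 in control cells, highest in replicate 1 in both. LUM had 14.72, 14.55 and 14.80 in FGF18-treated cells and 14.93, 14.41 and 14.68 in control cells. The bright PDGFRA probe had 14.64, 14.74 and 15.01 in FGF18-treated cells and 14.30, 15.08 and 14.96 in control cells, with replicate 1 the lowest in each condition, by 0.24 and 0.72 below the mean of the others. Its other probes were also lowest in replicate 1 in each condition. PDGFRB, near background, had 6.59, 6.86 and 6.74 in FGF18-treated cells and 6.67, 6.65 and 6.82 in control cells. The ranges of DCN, LUM and PDGFRA were reached in both conditions by 50.9%, 46.5% and 26.5% of the 8505 genes.

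**Figure D2:**
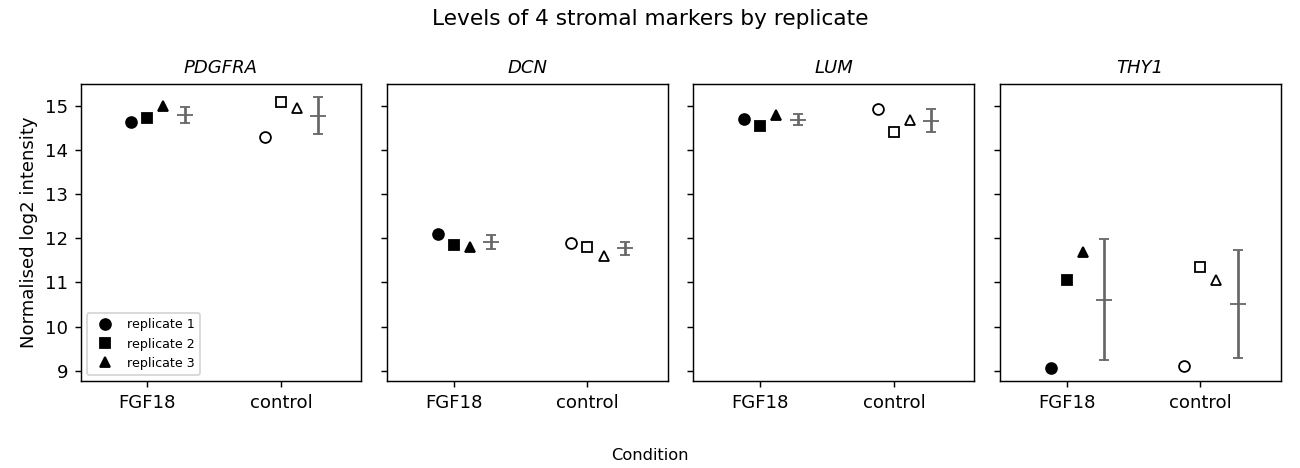
Normalised log2 intensity of the brightest probe of PDGFRA, DCN, LUM and THY1 in FGF18-treated (left, filled) and control cells (right, open). Each point is 1 replicate, the mean of its 2 arrays, and the bars give mean ± SD of 3 replicates. THY1 of replicate 1 lies at 9.07 and 9.11, below the values of 11.07 to 11.69 of replicates 2 and 3, while the other 3 genes show no such gap.

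Of the endothelial markers, PECAM1, a junctional adhesion molecule of endothelium, platelets and leukocytes, had 99.2 to 162 for FGF18 and 83.0 to 213 for control. It was not well above background on any array in either condition, at 0.764 to 0.911 times the threshold for FGF18 and 0.787 to 0.881 times for control. At least 82 of 153 negative control spots were brighter than it in every channel, so no fold is given. CDH5, the cadherin of endothelial adherens junctions, had 0.976 to 1.09 times the threshold for FGF18 and 0.941 to 1.23 times for control. It passed in 4 FGF18 and 3 control channels, that is in 5 of 6 Cy3 channels and 2 of 6 Cy5 channels.

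VWF encodes von Willebrand factor, which endothelial cells store and release for platelet adhesion. Its brighter probe passed in all 12 channels, at 1.11 to 1.57 times the threshold for FGF18 and 1.22 to 1.44 times for control. Its log2 levels were 7.45, 7.43 and 7.31 in FGF18-treated cells, against 7.19, 7.65 and 7.29 in control cells, and the ranges overlapped. The other probe passed on 2 arrays in each condition, at 0.823 to 1.16 times the threshold for FGF18 and 0.871 to 1.19 times for control. The 2 probes thus differed on whether VWF was detected.

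The comparison of FGF18-treated with control cells asks whether 2 h of FGF18 changed these transcripts, and whether the 2 sets of cultures held other cells to a different extent. Ratios are log2 of FGF18 over control, the mean of both dye orientations in each replicate, given as mean ± SD (n = 3). With limma over 15229 genes and Benjamini-Hochberg adjustment, 0 of 10 markers passed an adjusted p of 0.05, as did 0% of all genes. The adjusted p-values of the markers lay between 0.987 and 0.999. At an unadjusted p under 0.05 stood 0 of 10 markers and 3.49% of all genes, a count of 531 that was 941 when 6 arrays were fitted with a replicate block.

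DCN had the highest mean ratio of the 10, 0.14 ± 0.09, with 0.19, 0.04 and 0.19 in replicates 1, 2 and 3 (1.10-fold). Its 95% interval reached from -0.05 to 0.34, and limma's unadjusted p was 0.11 with an adjusted p of 0.987. The ratio was positive on 5 of 6 arrays. LUM had 0.02 ± 0.20, with -0.21, 0.14 and 0.13 in the replicates and an interval from -0.28 to 0.32. Levels of the conditions overlapped for both genes.

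The bright probe of PDGFRA had 0.34, -0.34 and 0.05 in replicates 1, 2 and 3, a mean of 0.02 ± 0.34 with an interval from -0.45 to 0.49. Its other probes gave 0.08 ± 0.26 and 0.11 ± 0.06. PDGFRB had 0.02 ± 0.17. THY1 had -0.05, -0.28 and 0.62, a mean of 0.10 ± 0.47 with an interval from -0.52 to 0.72, the widest of the 10. Without replicate 3 the ratio of THY1 was -0.17, and without replicate 2 it was 0.29, so its sign rests on single replicates.

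For the theca markers, CYP17A1 had -0.04 ± 0.02, with -0.03, -0.04 and -0.07 in the replicates and an interval from -0.21 to 0.12. It is the mean of 2 opposite sets of arrays, -0.26 with FGF18 in Cy5 and 0.17 with control in Cy5. INSL3 had 0.00 ± 0.25, with 0.21, -0.27 and 0.06 in the replicates and an interval from -0.35 to 0.36. For spots this near background, the offset of 50 added to every signal shrinks ratios towards 0, so these values do not bound a change in the RNA itself.

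Endothelial ratios were as small, and the offset limits them in the same way. VWF had 0.26, -0.21 and 0.01 in the replicates, a mean of 0.02 ± 0.24 with an interval from -0.32 to 0.36, and its other probe had 0.01 ± 0.01. CDH5 had -0.00385 ± 0.12 with an interval from -0.23 to 0.22. For PECAM1, below background throughout, the ratio describes background only.

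Over the 10 markers the median ratio was 0.02, from -0.04 for CYP17A1 to 0.14 for DCN, and over all genes it was -0.01. Replicates 1, 2 and 3 had ratios of 1 sign in 2 markers, DCN higher and CYP17A1 lower, and in 24% of all genes. Levels of the conditions did not overlap for 0 of 10 markers and for 5.8% of all genes. By replicate, the median over the 10 was 0.00, -0.07 and 0.09.

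**Figure D3:**
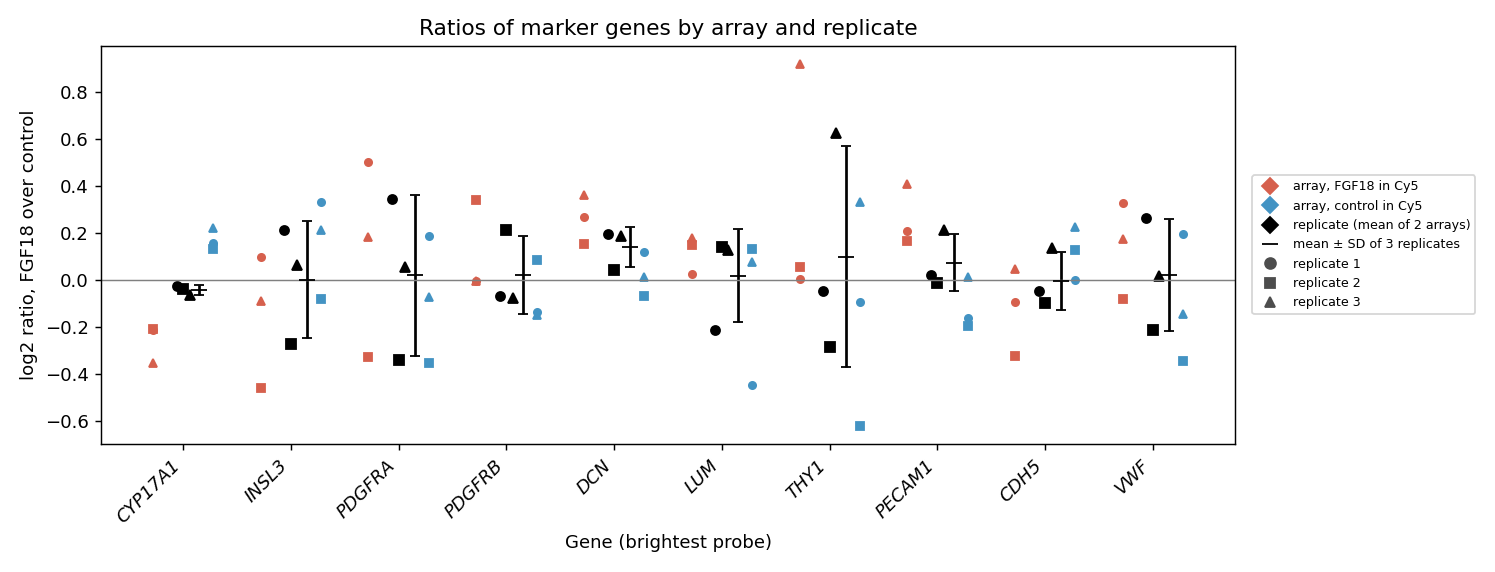
Log2 ratio of FGF18 over control for the brightest probe of each marker. Coloured points are single arrays by dye orientation, black points are replicates (mean of 2 arrays), and bars give mean ± SD of 3 replicates. Means lie between -0.04 and 0.14, THY1 has the widest spread, and for CYP17A1 all arrays with FGF18 in Cy5 lie below 0 and all with control in Cy5 above it.

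The ratios of these markers also depended on the dye orientation. The difference between the orientations within a replicate, FGF18 in Cy5 minus control in Cy5, was tested over 3 replicates with limma. It passed an adjusted p of 0.05 for 7 of 10 markers, and for 40.3% of all genes. The markers were CYP17A1, INSL3, DCN, THY1, PECAM1, CDH5 and VWF. In CYP17A1 the difference was -0.43 ± 0.13 (adjusted p = 0.00116), and in PECAM1, below background, it was 0.38 ± 0.02 (adjusted p = 0.00151). Without replicate 3 the count of markers was 2. The mean of a replicate holds both orientations once. The 3 arrays of each orientation share a number in their deposited names that may be a slide. In that case slide and dye orientation cannot be told apart.

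Across the 6 arrays, the ratios of PDGFRA and VWF ran together at a Pearson correlation of 0.93, and those of DCN and VWF at 0.82. Those of LUM and INSL3 ran apart at -0.69, and DCN and LUM, though neighbours, had 0.09. These are descriptions over 6 arrays that share dye orientation and RNA. Among 8491 other genes whose brightest probe was above background in every channel, the patterns most like PDGFRA were those of BMP2 and CRLF3, at correlations of 0.999 and 0.994. For THY1 they were TRPT1 and C3H1orf77, at 0.997 and 0.996, for DCN they were TLCD1 and TPT1, at 0.996 and 0.990, and for LUM they were YBX1 and MRPL53, at 0.984 and 0.973. The number of genes that correlated above 0.9 was 732 for PDGFRA, 446 for VWF, 414 for INSL3, 165 for THY1, 153 for DCN and 19 for LUM.

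Markers of the cultured cell type itself gave a frame for these readings. Of 20 granulosa markers, 17 were above background in FGF18-treated cells and 18 in control cells, or 85% and 90%. Over all genes the shares were 75.4% and 78.8%. INHA, the inhibin alpha subunit, and AMH, anti-Müllerian hormone, were above background on 6 of 6 arrays in each condition, and FSHR, the FSH receptor, in 5 FGF18 and 6 control channels. Mean log2 levels in FGF18-treated and control cells were 10.80 and 10.07 for INHA, 7.47 and 7.18 for AMH, and 7.37 and 7.69 for FSHR. AMH and FSHR thus read close to INSL3 and VWF, which lay just above the threshold, although levels of different probes also depend on the probe. Other granulosa markers read higher, with 14.94 and 14.89 for SERPINE2, 13.85 and 13.97 for INHBA, and 13.20 and 13.36 for CYP11A1. Of the 20, 14 were above background on all 6 arrays in both conditions and 2 on none. Over all 15229 genes these counts were 8532 and 1553. CYP19A1, the aromatase, was above background in 2 FGF18 and 4 control channels. FOXL2, a transcription factor of granulosa identity, was not well above background on any array. A probe at background therefore also occurred among genes that define the labelled cells. Whether such a transcript was missing from these cultures or was not read by its probe was not tested.

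Other markers of theca and stroma also ranged from bright to background. Of 15 on the array, 10 were above background in FGF18-treated cells and 11 in control cells, or 66.7% and 73.3%. Over all genes the shares were 75.4% and 78.8%. On all 6 arrays in both conditions 10 were above it, and 1 was above it on none. Over all 15229 genes these counts were 8532 and 1553, taking any probe of a gene. The collagen genes COL1A2 and COL3A1 and the smooth muscle actin gene ACTA2 were above background on 6 of 6 arrays in each condition. COL1A1 was too, but its mean log2 levels were 7.44 in FGF18-treated and 7.48 in control cells, against 12.05 and 11.97 for COL1A2. MGP and FBLN1 were each above background in 2 FGF18 and 1 control channels, and OGN in 2 FGF18 and 2 control channels. LHCGR, the receptor for luteinising hormone, which theca cells carry, was above background in 1 FGF18 and 3 control channels, and GLI1, a hedgehog target of theca cells, on none. COL3A1 varied between replicates, with 14.88, 13.22 and 13.97 in FGF18-treated cells and 15.03, 12.77 and 14.16 in control cells, highest in replicate 1, where THY1 was lowest. Of these 15 genes, 0 passed an adjusted p of 0.05 in limma, as did 0% of all genes. At limma's unadjusted p under 0.05, 1 was higher and 0 lower, beside 3.49% of all genes. The median ratio was 0.05.

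Of 7 mural markers, genes of pericytes and smooth muscle, 6 (85.7%) were above background in each condition. Of all genes 75.4% were for FGF18 and 78.8% for control. On all 6 arrays in both conditions 3 mural markers were above background, CSPG4, CNN1 and MCAM, named here after their values were seen. Of all 15229 genes 8532 were. Mean log2 levels in FGF18-treated and control cells were 7.11 and 7.28 for CSPG4, 11.47 and 11.72 for CNN1, and 8.88 and 8.63 for MCAM. TAGLN was above background in 4 FGF18 and 3 control channels, and RGS5 in 5 FGF18 and 6 control channels. DES was above it in 4 FGF18 and 5 control channels, and MYH11 in 0 FGF18 and 1 control channels. Of 15 other endothelial markers, 10 (66.7%) were above background in each condition. KDR and TEK, receptors for VEGF and angiopoietins, were above it in 6 FGF18 and 5 control channels, and CLDN5, a tight junction protein, in all 12 channels. TIE1 and CD34 were not well above background on any array. Median ratios were -0.01 for mural and -0.03 for endothelial genes. In limma 0 genes of either list passed an adjusted p of 0.05, or an unadjusted p of 0.05, beside 0% and 3.49% of all genes.

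Leukocyte, erythroid, oocyte and epithelial lists were read in the same way. Whether such cells were present in the cultures was not tested. Of 12 leukocyte markers, 8 were above background in each condition, and 3, ITGAM, CD79A and CSF1R, were above it on no array. CD3D was above it in 1 FGF18 and 1 control channel. PTPRC, a surface phosphatase of leukocytes, and CD68, a macrophage protein, were above it on 6 of 6 arrays in each condition. CD14 was above it in 5 FGF18 and 6 control channels, with mean log2 levels of 6.96 and 6.97, near the threshold. CD68 had 9.60, 11.03 and 9.91 in FGF18-treated cells and 8.80, 11.71 and 9.74 in control cells. PTPRC had 10.91, 7.70 and 10.18 in FGF18-treated cells and 10.49, 9.16 and 11.09 in control cells. Of 5 erythroid markers 4 were above background in each condition, with HBB, the beta globin gene, on 4 arrays for each. ALAS2 was above it in 0 FGF18 and 2 control channels. Of 10 oocyte markers 4 were above background for FGF18 and 6 for control, with GDF9 on none. ZP3 was above it in 5 FGF18 and 6 control channels. It had 7.04, 9.27 and 7.02 in FGF18-treated cells and 6.98, 9.75 and 7.01 in control cells, highest in replicate 2 in both. Of 5 epithelial markers 4 were above background in each condition, with KRT8 and KRT18 on 6 of 6 arrays. Over these 4 lists the shares above background lay between 40% and 80%, beside 75.4% of all genes in FGF18-treated cells and 78.8% in control cells, and no list had a member past the adjusted threshold. At an unadjusted p under 0.05, 2 granulosa markers were higher and 1 lower of 20, and 1 leukocyte marker was higher of 12, beside 3.49% of all genes.

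A level lowest in replicate 1 in both conditions, as THY1 had, was counted over genes whose brightest probe was above background on all arrays, after the THY1 values were seen. It occurred in 2 of 5 theca and stroma members, THY1 and PDGFRA, and in 23.3% of 8505 genes. Among the other lists it occurred in 1 of 13 granulosa, 2 of 10 other theca and stroma, 1 of 3 mural, 2 of 4 other endothelial, 1 of 4 leukocyte, 1 of 2 erythroid, 0 of 1 oocyte and 2 of 3 epithelial markers. The part of other cells in the THY1 values was not tested.

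The summed normalised intensity of the 7 theca and stroma markers lay between 57554 and 68812 in FGF18-treated cells and between 56050 and 63605 in control cells over the 3 replicates. That of the 3 endothelial markers lay between 368 and 376 in FGF18-treated cells and between 346 and 405 in control cells. The conditions overlapped in both sums. The theca and stroma sum rests mainly on the bright probes of PDGFRA and LUM. The endothelial sum is made of spots below, at or just above the background threshold. Its overlap therefore does not bound a difference in endothelial RNA.

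**Figure D4:**
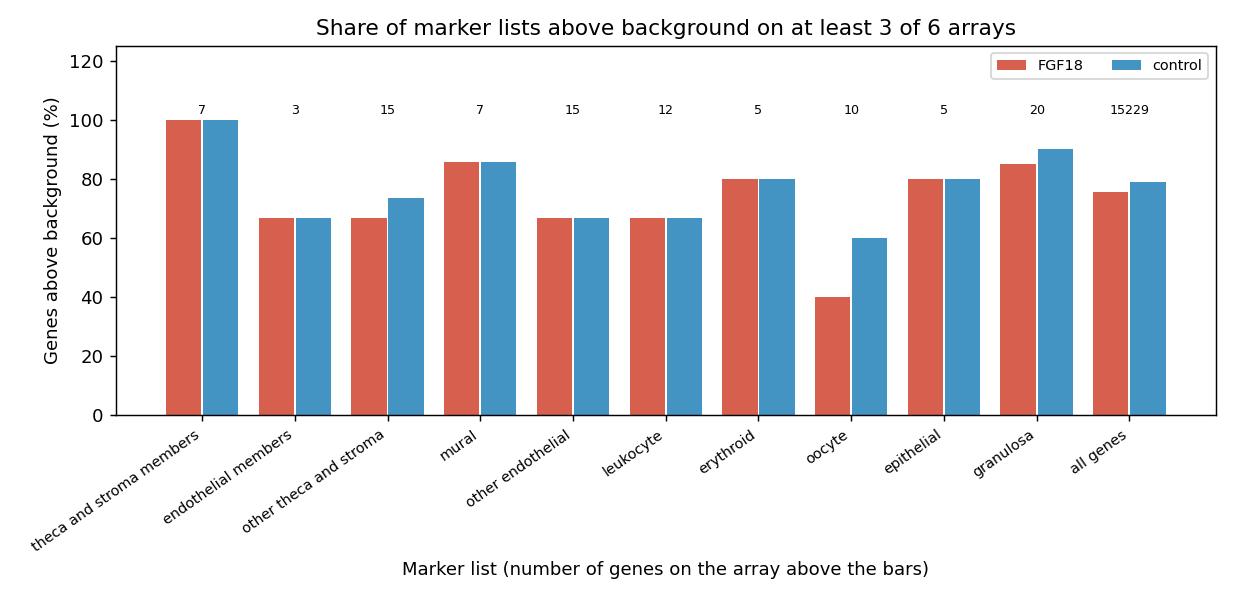
Share of each marker list that was above background on at least 3 of 6 arrays, in FGF18-treated (left bar) and control cells (right bar). The number over each pair is the count of genes on the array. All genes reached 75.4% for FGF18 and 78.8% for control, endothelial and leukocyte lists 66.7% in each condition, and oocyte markers 40% for FGF18 and 60% for control.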

How the data were processed

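Per the labels' protocols, RNA went through a pair of T7 amplification rounds and was labelled chemically with Cy3 or Cy5. The deposited scanner files hold, per the file headers, unnormalised spot intensity (mean) and local background intensity (median) for both dyes. The authors' deposited table gives, for every array, a log2 ratio of each probe. No source used here states its making, but it correlated at 1.00 with background-subtracted loess ratios turned to FGF18 over control, with column medians from -0.00375 to 0.0019. Normalisation software and genome build are likewise not given.

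The analysis used limma 3.58.1 under R 4.3.3: normexp background correction (offset 50), then loess within arrays (span 0.3) with 1418 control spots at weight 0. Another 110 readings that carried the scanner's ignore mark were left out. Ratios were turned to FGF18 over control, both arrays of a replicate averaged, and 3 replicates fitted with an intercept and eBayes over 15229 genes, each read by its brightest probe. Levels came from the same values after quantile normalisation of average intensity between arrays. No exact test by changing signs is reported, because 3 replicates allow no p under 0.25.

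A shared title number was read as a dye-swapped pair. Their deviations from the mean of their orientation correlated at 0.93, 0.94 and 0.80 over 30751 probes, for replicates 1, 2 and 3. The turned ratios of a pair correlated at 0.67, 0.77 and 0.27, and the mean ratios of replicates 1 and 2, 1 and 3, and 2 and 3 at -0.24, -0.04 and 0.39. Symbols are those of the platform annotation, which names 1 gene for 21790 probes, several for 0 and none for 22004. All 10 symbols are current in RefSeq. No label says that replicates came from separate animals beyond calling them biological, so p-values measure the spread between these samples.

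Members, lists and tests were chosen with earlier results of these data known. Named genes are all members, fixed defining genes of each marker list, and the 2 genes whose 6 array ratios correlate best with a member. Some further genes of the granulosa, theca and stroma, mural and leukocyte lists were named after their values were seen. Listed markers without a named probe are not reported here. The averaging and limma fit of ratios were tested on simulated ratios holding planted changes. Background correction, normalisation and detection were not tested in this way. Alternatives changed background correction, normalisation, variance prior, probe choice, replicates, dyes and the background threshold.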

Additional observations from a re-analysis of the deposited data

Results flagged for a closer look

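In 7 markers the ratio differed between the arrays with FGF18 in Cy5 and those with control in Cy5, by limma's test of the difference within replicates at an adjusted p under 0.05. The differences, FGF18 in Cy5 minus control in Cy5, were -0.43 for CYP17A1, -0.30 for INSL3, -0.24 for CDH5, 0.24 for DCN, 0.45 for THY1, 0.38 for PECAM1 and 0.24 for VWF. The same test called 40.3% of all genes. The 3 arrays of each orientation share a number in their deposited names that may be a slide. In that case slide and dye orientation cannot be told apart.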

How the results depend on the processing

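Under the 14 alternatives to the comparison of FGF18 with control, 0 genes and 0 of 10 markers passed the adjusted threshold. The lowest adjusted p of a marker was 0.477, for CYP17A1. At an unadjusted p under 0.05, DCN passed without background correction (1 marker), and CYP17A1, DCN and PECAM1 passed with FGF18 in Cy5 alone (3 markers), where 0 did in the analysis reported. The count of genes at that level, 531, was 941 with 6 arrays and a replicate block, 1417 with FGF18 in Cy5 alone, 1648 with control in Cy5 alone and 353 to 678 when 1 replicate was left out. The block changed no other call. The median ratio of the 9 markers above background, 0.02, was 0.12 with FGF18 in Cy5 alone and -0.068 with control in Cy5 alone, and -0.029 to 0.14 when 1 replicate was left out. The count of markers with a dye difference, 7, was 2 without replicate 3 and 2 to 7 over the replicates left out in turn. The cause of these moves was not tested. The ratio of DCN kept its sign in 14 of 14 alternatives, between 0.02 and 0.26. INSL3 and CDH5 kept theirs in 10 of 14. The ratio of THY1 lay between -0.17 and 0.32.

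With a threshold of mean + 3 SD, PDGFRB no longer counted as above background. When all 6 arrays had to pass in a condition, CYP17A1, PDGFRB and CDH5 did not count, and INSL3, PDGFRA, DCN, LUM, THY1 and VWF did. PECAM1 counted under none of the 8 alternatives for detection. Brightness over background limits what can be said of CYP17A1, INSL3, PDGFRB, PECAM1, CDH5 and VWF, and of the dimmer probes of PDGFRA. The precision of every ratio is limited by having 3 replicates.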
